A study of Mus musculus with 2 samples.

Results

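The genes described here are the calcium channels, calcium pumps and store proteins of the mouse thick ascending limb (TAL). Symbols were taken that start with Cacn, Ryr, Atp2a, Atp2b, Atp2c, Stim or Orai, together with Itpr1, Itpr2, Itpr3 and Slc8a1, when the gene held at least 20 counts over both libraries. Of 48 matching symbols, 41 passed, out of 32227 genes in the tables, and the 7 below the minimum (Cacna1f, Cacna1h, Cacna1s, Cacng1, Cacng4, Cacng5 and Cacng6) held 3 to 17 counts each. The members just inside the minimum were Atp2a1 with 20 counts, Cacna1i with 21 and Cacng8 with 22, and Cacng4 with 17 was just outside. Together the 41 members held 208181 counts, or 0.578% of all counts in TAL nuclei. The release channel gene Itpr2 and the channel subunit gene Cacnb2 ran in opposite directions across the α, β and γ classes. With classes drawn from the presence of Cldn10, Cldn16 and Kcnj10 counts, which group the barcodes differently, this did not hold between γ and β. Both genes were lower in γ there. Both genes were low in the macula densa class, and Ryr2 was high in the class with high Cacnb2. The macula densa class was high in Itpr3, Atp2b4 and Cacna1d. Atp2b4 and Cacna1d were also above the cortical α level in a cortical cluster made mostly of α barcodes. The Itpr1 and Atp2a2 levels, in contrast, varied by at most 1.17-fold and 1.21-fold over all 8 combinations of class and library.

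Nuclei came from male B6 mice that carried the inducible Slc12a1-CreERT2 driver and the Sun1-sfGFP nuclear tag (NKCC2-INTACT), were given tamoxifen, and are labelled WT with an age of 12 that has no unit. Kidneys were dissected into a superficial strip, the cortex, and the remaining tissue, the medulla, and GFP-positive nuclei were sorted and sequenced as 1 library per region. The strip took only the outer part of each slice, so the remaining tissue can include deeper cortex. Cortical and medullary below therefore name the library of a barcode and not its position in the kidney. The driver is active where Slc12a1, the gene of the cotransporter NKCC2, is expressed, so the sort can enrich only cells with that history, and the number of animals behind each library is not given in the sources used here. Both libraries came from the same line and treatment, and no untagged or untreated group was analysed here. The cortex library held 16457300 counts in 5442 barcodes and the medulla library 20947211 counts in 8121 barcodes, with medians of 2427 and 2430 counts, and 0 barcodes were shared. With 1 library per group there is no replicate check. Every interval given is a 95% interval that covers counting error only, and a difference between cortex and medulla cannot be told apart from a difference between libraries.

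Calcium signals in epithelial cells draw on entry through plasma membrane channels and on release from the endoplasmic reticulum, where inositol trisphosphate receptors and ryanodine receptors open and the sarco/endoplasmic reticulum pumps refill the store. Plasma membrane pumps and the sodium-calcium exchanger extrude calcium, and Stim proteins sense an emptied store and open Orai channels. In the TAL most calcium is reabsorbed between cells through claudin pores, while calcium inside the cell serves signals such as those of the calcium-sensing receptor. In macula densa cells, the sensor of tubular salt next to the glomerulus, the nitric oxide synthase encoded by Nos1 depends on calcium and calmodulin.

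TAL barcodes were those with at least 10 Slc12a1 counts, 5218 in cortex and 7967 in medulla. They were put in the macula densa (MD) class at 3 or more counts of Nos1 plus Pappa2, otherwise in the β class at 2 or more Tmem52b counts, otherwise in the γ class at 2 or more counts of Tmem207 plus Gpc5, and otherwise in the α class. Cortex gave 2824 α, 1493 β, 248 γ and 653 MD barcodes, and medulla gave 3776 α, 571 β, 3542 γ and 78 MD barcodes. The median depth was 2404 to 2780 counts in the α, β and γ classes and 1883 and 1996 in the MD classes. Such classes are ranges of a count and not cell types. In medulla 748 α barcodes had 1 count of Tmem207 plus Gpc5 and 501 γ barcodes had exactly 2, and in cortex 425 barcodes had 1 Tmem52b count and 331 β barcodes had exactly 2. The members were chosen by their symbols and total counts, and the classes by the counts of Slc12a1, Nos1, Pappa2, Tmem52b, Tmem207 and Gpc5, and levels of those class genes are given only to describe the classes.

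Genes that the class limits did not use were examined as a check of the class names. Kcnj10, which encodes a basolateral potassium channel, was measured at 17.8 and 13.2 counts per 1000000 (CPM) in the cortical and medullary α classes, 139 and 170 CPM in the β classes and 109 CPM in the medullary γ class. Cldn16, which encodes the claudin of the calcium-permeable junction, was at 188 and 250 CPM in the β classes and at 55.0 CPM in the medullary γ class, where Cldn10 was at 211 CPM. In the cortical and medullary α classes Cldn16 was at 101 and 60.2 CPM and Cldn10 at 216 and 242 CPM. Cldn10 was still at 116 and 55.8 CPM in the β classes. Kcnj10 and the claudin genes thus ran in the direction of those class names, but the claudin genes separated cortical α and β only in part. An alternative rule used below kept MD and took β as a Cldn16 count without a Cldn10 count. Barcodes with Cldn10 but no Cldn16 were γ with a Kcnj10 count and α without it. In medulla only 40.5% of α barcodes had a Cldn10 count, and 11.9% had a Cldn16 count against 48.5% of β. That rule gave 773 medullary β barcodes beside 571 by the class genes, so its classes mix those used here. Ptgs2, the prostaglandin synthase gene of the macula densa, was at 85.8 and 126 CPM in the cortical and medullary MD classes and at most at 4.14 CPM in any other. The 248 cortical γ barcodes went against their name, since Cldn16 was at 153 CPM and 48.0% of them had a Tmem52b count, so no call rests on them and they are called the cortical Tmem207/Gpc5 barcodes. Markers of other kidney cells were present too. The 7 proximal tubule genes together were at 1892 to 3545 CPM in the cortical classes and 411 to 627 CPM in the medullary classes, and the 4 distal convoluted tubule (DCT) genes Slc12a3, Trpm6, Calb1 and Trpv5 together were at 381 CPM in cortical β, 213 CPM in medullary β and 6.61 CPM in medullary α. Trpv5 had 0 counts in medullary α, and Calb1 and Trpv5 had 0 counts in medullary MD, while every gene of the proximal tubule list was counted in every class. Each of the other 7 lists (collecting duct principal, intercalated, endothelial, stromal and smooth muscle, podocyte, immune and thin limb cells) was at 166 CPM or less in every class.

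For 4 members that the class differences turn on, the sequence before the transcription start is shown, 1 that is high in α and encodes a channel subunit, 1 that is high in α and encodes a release channel, 1 that is high in β and γ, and 1 that is high in the MD class. The windows are the 250 bases upstream of the start in RefSeq on GRCm38.p6, 5′ to 3′ on the gene's strand, at chr2:14604056-14604305 (plus strand) for Cacnb2, chr13:12106946-12107195 (minus) for Ryr2, chr6:146502224-146502473 (minus) for Itpr2 and chr17:27057054-27057303 (plus) for Itpr3. Capitals mark GGGCGG on either strand, which reads CCGCCC on the other, the core of the GC box bound by Sp family factors.
Cacnb2: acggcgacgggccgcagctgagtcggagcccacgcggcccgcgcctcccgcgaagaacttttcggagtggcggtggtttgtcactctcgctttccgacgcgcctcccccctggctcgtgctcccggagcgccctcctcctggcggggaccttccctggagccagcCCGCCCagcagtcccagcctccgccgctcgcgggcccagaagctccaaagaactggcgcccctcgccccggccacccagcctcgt
Ryr2: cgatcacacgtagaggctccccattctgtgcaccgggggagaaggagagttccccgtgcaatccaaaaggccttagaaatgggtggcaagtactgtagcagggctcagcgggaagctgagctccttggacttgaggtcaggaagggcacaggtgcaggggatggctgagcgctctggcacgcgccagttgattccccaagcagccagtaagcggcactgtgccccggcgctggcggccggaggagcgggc
Itpr2: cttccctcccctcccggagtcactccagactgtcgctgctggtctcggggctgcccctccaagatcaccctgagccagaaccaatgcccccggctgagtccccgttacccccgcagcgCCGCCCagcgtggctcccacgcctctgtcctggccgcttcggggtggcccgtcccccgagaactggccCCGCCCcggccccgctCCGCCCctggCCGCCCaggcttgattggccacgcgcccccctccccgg
Itpr3: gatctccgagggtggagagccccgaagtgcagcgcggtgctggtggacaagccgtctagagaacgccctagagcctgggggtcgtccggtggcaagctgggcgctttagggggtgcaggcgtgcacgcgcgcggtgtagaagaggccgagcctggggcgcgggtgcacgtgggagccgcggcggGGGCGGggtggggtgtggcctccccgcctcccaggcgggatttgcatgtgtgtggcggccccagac

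The Itpr2 window held 4 such matches, the Cacnb2 and Itpr3 windows 1 each and the Ryr2 window 0. For Cacnb2 there were 2 windows, and only the first is shown. The G and C content was 74.4% in the Itpr2 window, 73.2% in the Cacnb2 window, 72% in the Itpr3 window and 63.2% in the Ryr2 window. On GRCm39 the annotated genes lie at chr2:14607899-14994127 (plus strand, Cacnb2), chr13:11567988-12121870 (minus strand, Ryr2), chr6:146009797-146403721 (minus strand, Itpr2) and chr17:27275971-27343866 (plus strand, Itpr3) (GENCODE M39). The table gave 45 windows for 33 of the 41 members, of which 26 (57.8%) held the 6 letters, against 32.7% of all 32851 windows. A match is only a description of these letters.

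Levels were compared as ratios of CPM between classes of the same library and between libraries for the same class. A gene was called different when the ratio was at least 2 in either direction, its interval excluded 1 and both sides together held at least 20 counts. For β against α in cortex 6 of 34 members were called, 3 higher and 3 lower, beside 4.20% of all 14772 genes with enough counts (2.40% higher, 1.80% lower). In medulla the same comparison called 4 of 31 members, 3 higher and 1 lower, beside 4.88% of genes (2.44% in each direction). For γ against α in medulla 8 of 33 were called, 2 higher and 6 lower, beside 3.40% of genes (0.982% higher, 2.42% lower), and for γ against β in medulla 7 of 31, 2 higher and 5 lower, beside 6.99% (2.77% higher, 4.22% lower). For MD against α 9 of 33 members were called in cortex (6 higher, 3 lower) beside 10.1% of genes (5.97% higher, 4.17% lower), and 9 of 31 in medulla (6 higher, 3 lower) beside 12.0% (7.28% higher, 4.75% lower). The members were taken up with earlier results of these data known, so a share above the background is a description of this list. The median log2 ratio of the members was -0.04 for β against α in cortex and -0.08 in medulla, -0.14 for γ against α and 0.38 and 0.10 for MD against α in cortex and medulla, where the medians of all genes were 0.02, -0.02, 0.00, 0.04 and -0.01. For γ against β it was -0.17, beside 0.02 for all genes.

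Atp2b2, Itpr2 and Slc8a1 were called higher in β than α in both libraries, and Cacnb2 was called lower in both. Both Slc8a1 calls were lost without barcodes holding a DCT gene count (1.39 and 1.05), and the DCT genes together were at 88.0 and 381 CPM in cortical α and β and at 6.61 and 213 CPM in medullary α and β. In the MD class Atp2b4, Cacna1d and Itpr3 were called higher and Cacnb2, Cacnb4 and Ryr2 lower in both libraries. For γ against β in medulla Cacnb2 and Cacnb4 (2.18) were called higher. Atp2b2 (0.485), Atp2b4, Cacna2d1 (0.385), Itpr2 and Slc8a1 (0.0614) were called lower there. Of these, the Atp2b2 and Slc8a1 calls were lost without barcodes holding a DCT gene count. Of the 26 members with at least 200 counts in TAL nuclei, 12 were called in none of the 8 comparisons, those between libraries included: Atp2a2, Atp2b1, Atp2c1, Cacna1a, Cacna1c, Cacna2d3, Cacnb1, Cacnb3, Cacng7, Itpr1, Ryr3 and Stimate. The share of all genes called in none of the 8 is not given here, so this number only describes the list.

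**Figure D1:**
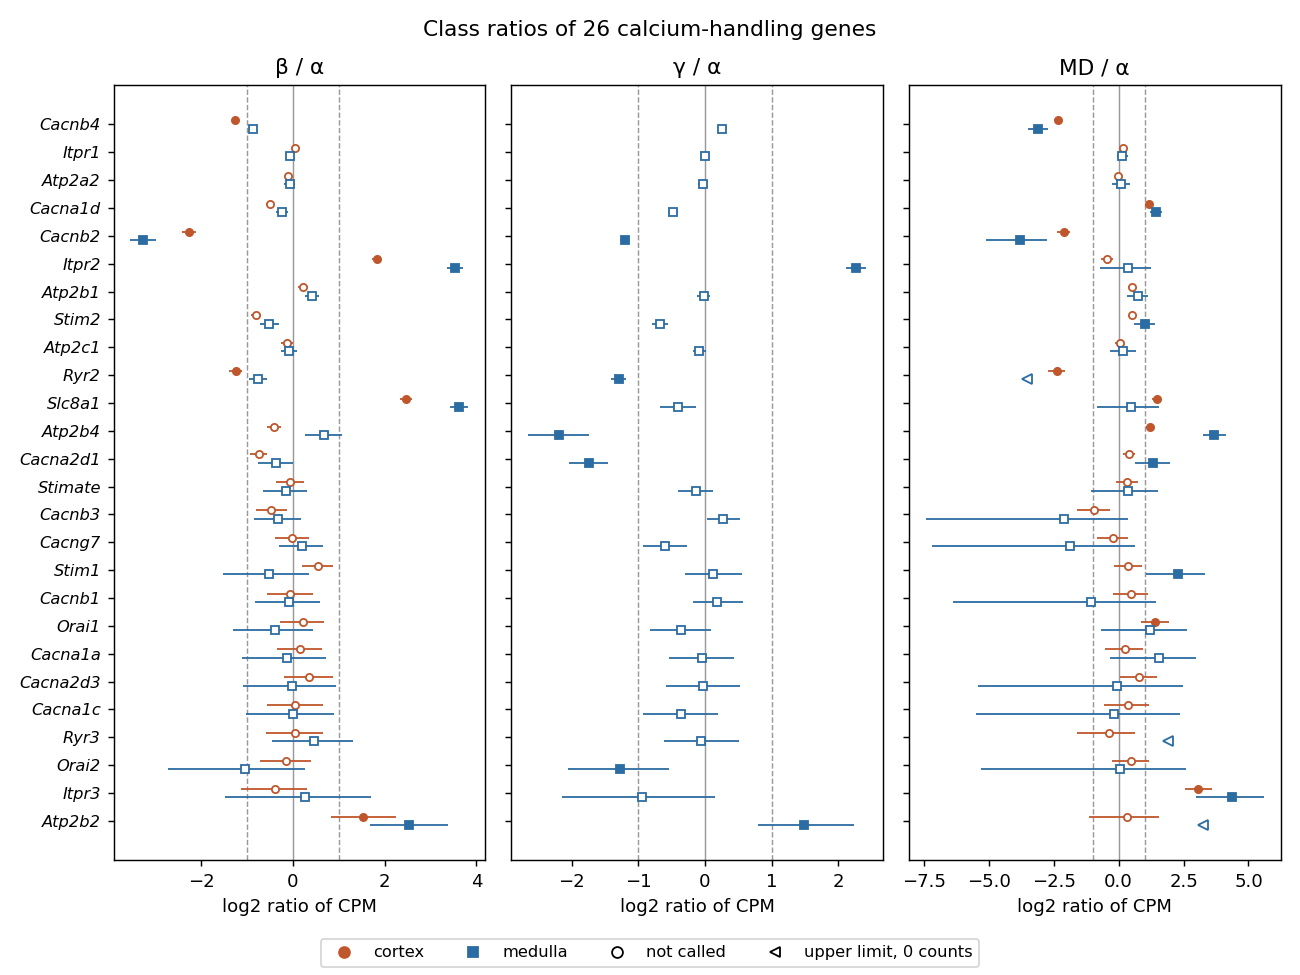
Log2 ratio of CPM (x axis) for the 26 members with at least 200 counts, for β over α, γ over α and MD over α, in cortex (circles) and medulla (squares), with 95% counting intervals as bars. Filled symbols were called, open symbols were not, triangles mark the upper limit where MD had 0 counts (of these Ryr2 was called), and dashed lines mark a ratio of 2; the 3 panels have different x ranges. Itpr2 lies to the right and Cacnb2 to the left for β and γ, while Itpr3 and Atp2b4 lie to the right for MD.

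The voltage-gated channels are built from a pore-forming subunit and auxiliary subunits that sit in the cytoplasm or outside the membrane. Cacna1d, the pore of an L-type channel, was measured at 446 CPM in cortical α, 317 in β, 307 in the cortical Tmem207/Gpc5 barcodes and 1008 in MD, and at 395, 335, 283 and 1072 CPM in medullary α, β, γ and MD. The MD class was the high class in both libraries and its interval did not meet that of any other class. MD over α gave a ratio of 2.26 (2.13 to 2.40) in cortex and of 2.71 (2.32 to 3.16) for medullary barcodes, and in proximal tubule barcodes with at most 2 Slc12a1 counts the level was 29.3 and 32.5 CPM. Cacna1a, the pore of the P/Q-type channel, ranged from 7.40 to 24.1 CPM and Cacna1c, the L-type pore of heart and smooth muscle, from 5.30 to 10.9 CPM, with no class called for either.

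Cacnb2 encodes a cytoplasmic auxiliary subunit that carries the pore to the membrane. It was at 375 CPM in cortical α, 78.8 in β, 92.1 in the Tmem207/Gpc5 barcodes and 86.4 in MD. In medulla it was at 589 CPM in α, 62.0 in β, 257 in γ and 42.2 in MD. The α class was thus high in both libraries, β and MD were low in both, and medullary γ lay between them with no overlap of the intervals. Cortical β over α gave a ratio of 0.210 (0.189 to 0.233) and medullary β over α 0.105 (0.0863 to 0.127), γ over α 0.436 (0.415 to 0.458), and MD over α 0.230 (0.193 to 0.272) in cortex and, on 7 MD counts, 0.0715 (0.0288 to 0.148) in medulla. With classes drawn from the counts of Cldn10, Cldn16 and Kcnj10 in place of the class genes, the β over α ratios were 0.571 (0.511 to 0.637) in cortex, which fell short of the limit, and 0.464 (0.420 to 0.513) in medulla, and γ over β, 4.14 (3.42 to 5.07) with the class genes, was 0.571 (0.451 to 0.717). A count of Cacnb2 was found in 46.4% of cortical α barcodes against 11.6% of β, and in 58.8% of medullary α barcodes against 8.93% of β and 27.2% of γ. In the proximal tubule barcodes, which are deeper (median 3436 and 4587 counts), the shares were 9.09% and 4.04%. After thinning every barcode to 1000 counts the cortical shares were 27.2% in α, 4.49% in β and 0% in proximal tubule barcodes, and the medullary shares 38.5% in α, 4.55% in β, 17.0% in γ and 1.01% in proximal tubule barcodes.

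Cacnb4, another cytoplasmic auxiliary subunit, was at 1221 CPM in cortical α, 514 in β, 1218 in the Tmem207/Gpc5 barcodes and 240 in MD. In medulla it was at 2949 CPM in α, 1617 in β, 3532 in γ and 349 in MD. The medullary α, β and γ values thus lay above those of their cortical counterparts, and MD was the low class of each library. Cortical β over α gave a ratio of 0.421 (0.403 to 0.440), which was called, and medullary β over α 0.548 (0.527 to 0.570), which fell short of the limit. With classes from Cldn10, Cldn16 and Kcnj10 the cortical ratio was 0.785 (0.744 to 0.829) and no longer called. MD over α gave 0.196 (0.177 to 0.217) and 0.118 (0.0899 to 0.153) in the same order of libraries. The direction held under every alternative, but the size did not, since the ratios were 0.0753 and 0.0599 without doublets called by Scrublet or with the highest scores, and 0.00852 and 0.00912 with the deposited clusters. The 400 Cacnb4 counts of cortical MD lay in 72 barcodes and the 58 of medullary MD in 9. A Cacnb4 count was found in 11.0% of cortical and 11.5% of medullary MD barcodes, below the 17.0% and 25.3% of the deeper proximal tubule barcodes. No detection above background is claimed there, and the source of these MD counts was not tested. Barcodes not called as nuclei, with at most 100 counts each, held Cacnb4 at 699 CPM in the cortex library and 2635 CPM in the other.

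Cacna2d1, an auxiliary subunit on the outer face of the membrane, was at 107 CPM in cortical α, 64.3 in β, 43.6 in the Tmem207/Gpc5 barcodes and 142 in MD, and at 47.6, 37.0, 14.2 and 120 CPM in medullary α, β, γ and MD. Medullary γ was the low class and MD the high class. A low level was not particular to γ, since medullary α is a mean over unlike deposited clusters. Cluster 1 (96.7% α) was at 78.2 CPM, but clusters 3 and 4 (76.6% and 64.2% α) were at 22.9 and 10.8 CPM. Cluster 5 (95.9% γ) was at 6.91 CPM, and the part of this mix in the ratio was not tested. Medullary γ over α gave a ratio of 0.300 (0.244 to 0.365), medullary MD over α 2.53 (1.53 to 3.96) on 20 MD counts, and cortical MD over α 1.32 (1.14 to 1.53), below the limit. Scaled by the median of gene ratios, the medullary MD ratio was 1.99 (1.20 to 3.11) and no longer called, and after thinning its interval met 1 (2.27, 0.963 to 4.57). Cacnb3 ranged from 6.02 to 31.7 CPM over all classes, Cacnb1 from 6.02 to 15.6 CPM, Cacna2d3 from 3.64 to 14.4 CPM and Cacng7, taken in by its symbol, from 6.02 to 25 CPM, none of them called. The lowest of these values for Cacnb1, Cacnb3 and Cacng7 is 1 count among the 78 medullary MD barcodes.

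**Figure D2:**
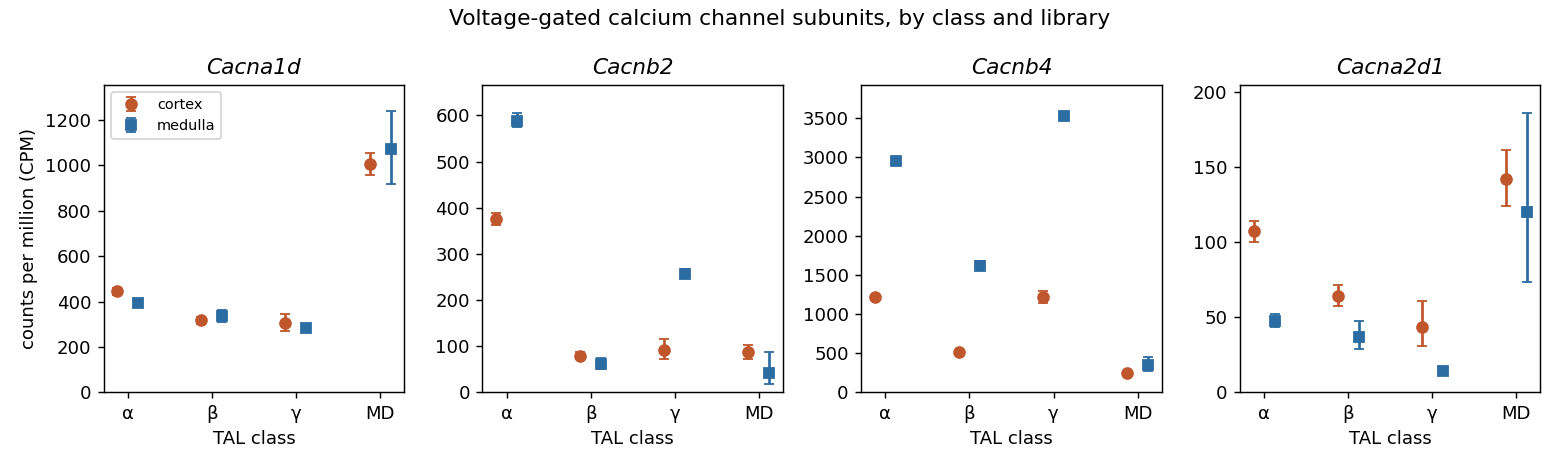
CPM (y axis, from 0) of Cacna1d, Cacnb2, Cacnb4 and Cacna2d1 in each TAL class (x axis) in cortex (circles) and medulla (squares), with 95% counting intervals as bars. The cortical circle at γ is the Tmem207/Gpc5 barcodes, whose markers go against that name. Cacna1d is at 1008 and 1072 CPM in MD, while Cacnb2 is at 375 and 589 CPM in α and below 100 CPM in β and MD.

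The release channels of the store are given first. Itpr1, an inositol trisphosphate receptor, was at 1066 CPM in cortical α, 1095 in β, 1132 in the Tmem207/Gpc5 barcodes and 1198 in MD, and at 1073, 1027, 1073 and 1181 CPM in medullary α, β, γ and MD. Its ratio of γ to α was 0.999 (0.972 to 1.03) and its ratios of β to α were 1.03 (0.994 to 1.06) and 0.957 (0.910 to 1.01). Each of these intervals included 1, and they cover counting error only. The MD level was the highest of each library. No background level is set beside Itpr1 or Atp2a2, and the part of free RNA or other cells in their even levels was not tested. Over the deposited clusters Itpr1 ranged from 801 to 1523 CPM in cortex and from 967 to 1685 CPM in medulla.

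Itpr2, a receptor of the same family with higher affinity for inositol trisphosphate, was at 144 CPM in cortical α, 511 in β, 520 in the Tmem207/Gpc5 barcodes and 105 in MD. In medulla it was at 47.0 CPM in α, 544 in β, 226 in γ and 60.2 in MD. The β classes of the 2 libraries had overlapping intervals, and medullary γ lay between medullary α and β. Cortical β over α gave a ratio of 3.55 (3.31 to 3.81) and medullary β over α 11.6 (10.3 to 13.0), while γ over α gave 4.81 (4.34 to 5.34) and γ over β 0.416 (0.385 to 0.449). With classes from Cldn10, Cldn16 and Kcnj10 these were 2.05 (1.86 to 2.27), 4.14 (3.71 to 4.62), 3.26 (2.77 to 3.82) and 0.787 (0.674 to 0.916), the last no longer called. A count of Itpr2 was found in 72.5% of cortical β and 73.0% of medullary β barcodes, against 15.9% and 6.51% of α barcodes and 34.0% of medullary γ barcodes. After thinning to 1000 counts the shares were 39.2% and 40.5% in β, 7.79% and 3.51% in α and 18.5% in medullary γ. Proximal tubule barcodes themselves held Itpr2 at 457 and 180 CPM and cannot serve as a background for it. Of all counts of the 3 receptor genes, not corrected for length, Itpr2 made up 11.8% in cortical α and 31.7% in cortical β, and 4.19%, 34.5% and 17.4% in medullary α, β and γ.

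Itpr3, the third receptor of the family, was sparse outside the MD class. It was at 6.53 CPM in cortical α, 4.97 in β, 4.85 in the Tmem207/Gpc5 barcodes and 54.6 in MD, and at 2.35, 2.85, 1.21 and 48.2 CPM in medullary α, β, γ and MD. MD over α gave a ratio of 8.36 (5.88 to 12.0) on 91 and 52 counts in cortex, and 20.5 (7.91 to 47.9) on 8 and 22 counts in medulla, where the call was lost with classes from Cldn10, Cldn16 and Kcnj10, after thinning and with a minimum of 100 counts for want of counts. An Itpr3 count was found in 12.7% of cortical MD barcodes and 8.97% of medullary ones, against 1.70% and 0.530% of α barcodes and 1.14% and 0% of proximal tubule barcodes.

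Ryr2, the ryanodine receptor best known from heart muscle, was at 251 CPM in cortical α, 106 in β, 131 in the Tmem207/Gpc5 barcodes and 48.0 in MD, and at 253, 150 and 103 CPM in medullary α, β and γ. No Ryr2 count was found in the 78 medullary MD barcodes, and 3 counts there would be 18.1 CPM, so the level was at least 14.0-fold lower than in medullary α. The α classes of both libraries were the high classes and had the same level within the intervals. Cortical β over α gave a ratio of 0.423 (0.384 to 0.465), medullary β over α 0.593 (0.520 to 0.674), which fell short of the limit, and γ over α 0.408 (0.378 to 0.441). With classes from Cldn10, Cldn16 and Kcnj10 the cortical β ratio was 0.703 (0.623 to 0.794) and the γ ratio 0.530 (0.413 to 0.671), and neither was called. Cortical MD over α gave 0.191 (0.151 to 0.239), which was 0.0751 (0.0485 to 0.111) without Scrublet doublets and 0.0174 (0.00564 to 0.0406) with the deposited clusters. A Ryr2 count was found in 34.8% of cortical α barcodes and in 6.13% of cortical MD barcodes. No detection above background is claimed for the latter share, since 12.5% of the deeper cortical proximal tubule barcodes had a count. Ryr3 ranged from 0 to 17 CPM with no call. Ryr1, the skeletal muscle form, was below 5 CPM in every class, and it was called lower in medullary γ than α on 9 against 23 counts (ratio 0.405, 0.165 to 0.909). That call was lost without barcodes holding markers of another cell type (0.448, 0.181 to 1.02), with stricter limits, with classes from Cldn10, Cldn16 and Kcnj10, with the deposited clusters, after thinning and with a minimum of 100 counts.

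**Figure D3:**
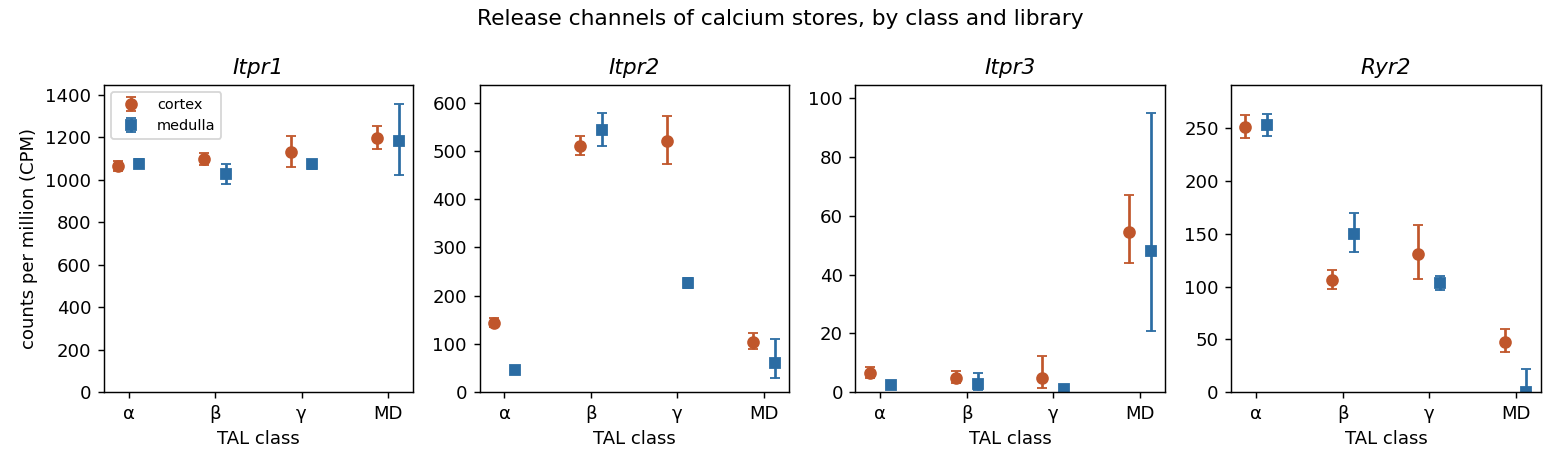
CPM (y axis, from 0, with a different range in each panel) of Itpr1, Itpr2, Itpr3 and Ryr2 in each TAL class (x axis) in cortex (circles) and medulla (squares), with 95% counting intervals as bars. The cortical circle at γ is the Tmem207/Gpc5 barcodes, whose markers go against that name. Itpr1 is near 1100 CPM throughout, Itpr2 is at 511 and 544 CPM in β, Itpr3 at 54.6 and 48.2 CPM in MD and Ryr2 at 251 and 253 CPM in α.

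The split between medullary α and γ can be shown in finer ranges of the counts of Tmem207 plus Gpc5. These are the counts that cut γ from α, so the ranges describe that split and are no evidence beside the comparison of γ with α. Cacnb2 was at 606 CPM in barcodes with 0 counts of the pair, 519 at 1, 398 at 2, 344 at 3 to 4, 233 at 5 to 9 and 157 at 10 or more. Ryr2 was at 269, 187, 154, 120, 92.9 and 81.0 CPM over the same 6 ranges. Itpr2 was at 36.1, 92.3, 140, 184, 251 and 266 CPM. Itpr1 stayed between 1054 and 1107 CPM, and Kcnj10 was at 6.35, 41.8, 74.1, 76.9, 118 and 138 CPM. Median depth ran from 2275 counts in barcodes with 2 of the pair to 2568 in those with 10 or more, and its part in the trend was not tested.

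**Figure D4:**
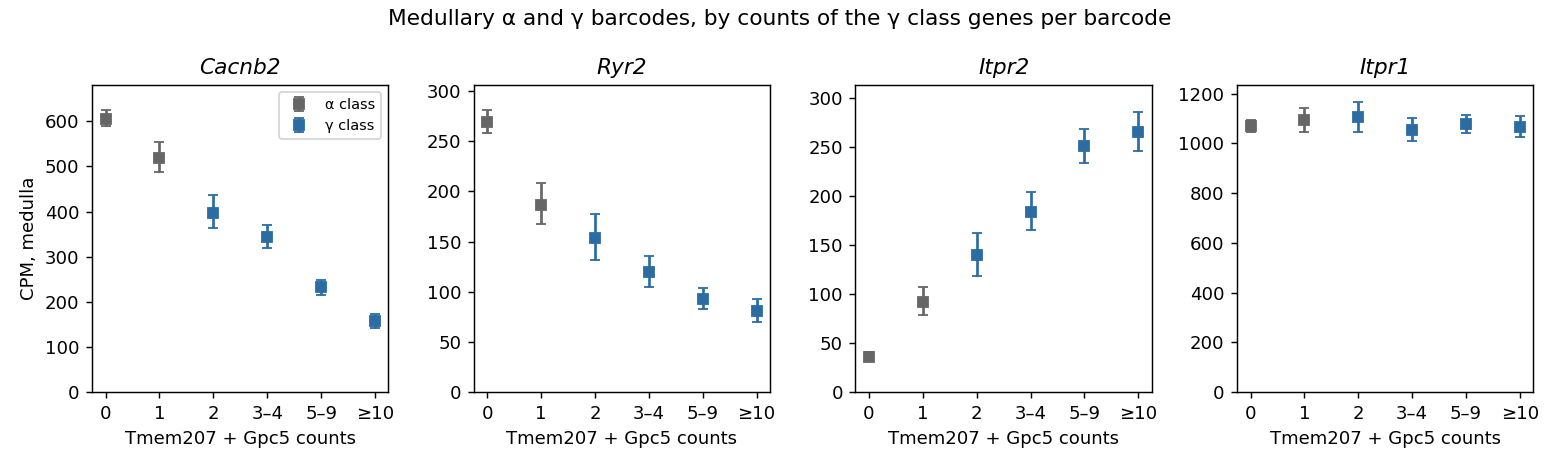
CPM in medulla (y axis, from 0) of Cacnb2, Ryr2, Itpr2 and Itpr1 in α barcodes (grey) and γ barcodes (blue) by the summed counts of Tmem207 and Gpc5 in the barcode (x axis), with 95% counting intervals as bars. Cacnb2 goes from 606 to 157 CPM and Itpr2 from 36.1 to 266 CPM, while Itpr1 stays between 1054 and 1107 CPM.

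Counts of Cacnb2 and Itpr2 were also looked for in the same barcode. In medullary γ 5.03% of barcodes held both (4.33% to 5.80%), where the product of their separate shares is 9.25%, and in medullary α 1.99% held both (1.57% to 2.48%) where the product is 3.83%. In cortical β the share was 8.57% (7.20% to 10.1%) and the product 8.40%. After thinning to 1000 counts the medullary γ share was 1.44% (1.08% to 1.89%) and the product 3.15%. In cortical α the share was 5.77% (4.94% to 6.70%) and the product 7.38%, and in medullary β 5.60% (3.86% to 7.82%) and 6.52%. The MD classes lay above the product, with 2.91% (1.76% to 4.51%) against 1.23% in cortex and, on 3 barcodes, 3.85% (0.800% to 10.8%) against 0.493% in medulla. After thinning, the cortical MD share was 0.153% on 1 barcode, and the product 0.180%. The interval of the share thus lay below the product in the α classes of both libraries and in medullary γ, and barcodes of 1 library are not replicates.

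The pumps fell into a flat and a variable set. Atp2a2, the main pump of the endoplasmic reticulum, was at 454, 424, 502 and 449 CPM in cortical α, β, Tmem207/Gpc5 barcodes and MD, and at 437, 416, 427 and 470 CPM in medullary α, β, γ and MD. Atp2c1, the pump of the Golgi apparatus, ranged from 153 to 223 CPM, and the plasma membrane pump Atp2b1 from 185 CPM in medullary γ to 313 CPM in both MD classes, with no call. Atp2a3, an endoplasmic reticulum pump of other tissues, was called higher in cortical MD than α (8.40 against 0.879 CPM, ratio 9.55, 3.61 to 28.0) on 14 and 7 counts, and in medullary MD, on 2 counts, the ratio to α was 16.1 (1.64 to 84.8), with too few counts for a call. The cortical call was lost under 7 alternatives, which left between them ratios of 5.41 to 11.9: markers of another cell type or DCT counts removed, 20 Slc12a1 counts, stricter limits, classes from Cldn10, Cldn16 and Kcnj10, thinning, and a minimum of 100 counts.

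Atp2b4, a plasma membrane pump that binds calmodulin, was at 122 CPM in cortical α, 92.4 in β, 49.7 in the Tmem207/Gpc5 barcodes and 284 in MD. In medulla it was at 25.6 CPM in α, 41.0 in β, 5.63 in γ and 331 in MD. The MD classes of both libraries were alike within their intervals, and the other classes were lower in medulla. Cortical MD over α gave a ratio of 2.32 (2.07 to 2.59) and medullary MD over α 12.9 (9.48 to 17.4), while medullary γ over α gave 0.220 (0.159 to 0.299) and γ over β 0.137 (0.0941 to 0.199). An Atp2b4 count was found in 45.6% of cortical and 43.6% of medullary MD barcodes, in 24.8% and 4.71% of α barcodes and in 1.24% of medullary γ barcodes, where the proximal tubule barcodes gave 7.95% and 1.01%. No detection above background is claimed for the γ share, so both γ ratios set a level near background against another class. Barcodes not called as nuclei in the medulla library, given below, also held more Atp2b4 than γ.

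Atp2b2, a plasma membrane pump known from hair cells and neurons, was sparse, at 3.39 and 2.56 CPM in cortical and medullary α, 9.75 and 14.8 CPM in β, 7.18 CPM in medullary γ, and 4.20 and 0 CPM in MD. The β over α ratios were 2.88 (1.77 to 4.77) and 5.78 (3.19 to 10.5), and γ over α gave 2.80 (1.73 to 4.69). A count was found in 2.08% of cortical and 3.85% of medullary β barcodes, where proximal tubule barcodes gave 5.68% and 2.02%. No detection above background is claimed for the cortical share. Barcodes with at least 5 counts of the DCT genes held Atp2b2 at 56.2 and 107 CPM, and without every barcode that had a DCT gene count, an alternative chosen after seeing the data, the β ratios were 2.31 (1.29 to 4.20) and 5.54 (2.88 to 10.7). Without barcodes holding 5 or more counts of any other cell type's markers, the cortical β ratio was 2.13 (0.929 to 4.92) and no longer called. With classes from Cldn10, Cldn16 and Kcnj10 the cortical β ratio was 0.914 and the medullary γ ratio 0.604, and both β calls were also lost after thinning and with a minimum of 100 counts.

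**Figure D5:**
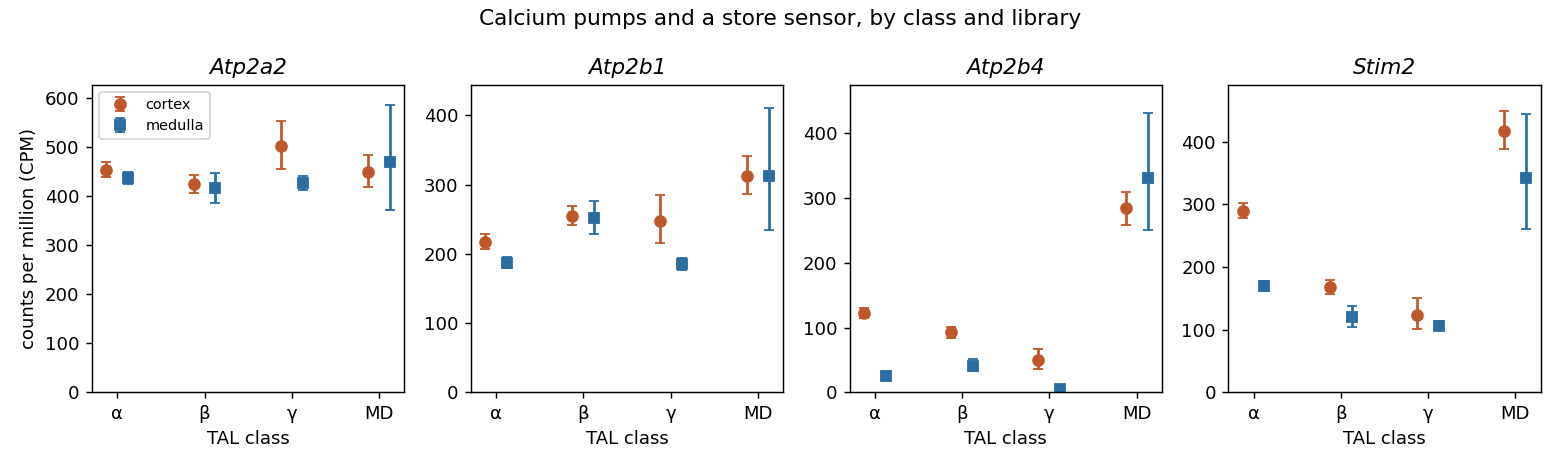
CPM (y axis, from 0, with a different range in each panel) of the pump genes Atp2a2, Atp2b1 and Atp2b4 and the store sensor gene Stim2 in each TAL class (x axis) in cortex (circles) and medulla (squares), with 95% counting intervals as bars. The cortical circle at γ is the Tmem207/Gpc5 barcodes, whose markers go against that name. Atp2a2 lies between 416 and 502 CPM throughout, and Atp2b4 is at 284 and 331 CPM in MD and 5.63 CPM in medullary γ.

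Stim2, a sensor of the calcium in the store, was at 290 CPM in cortical α, 168 in β, 124 in the Tmem207/Gpc5 barcodes and 418 in MD, and at 170, 120, 106 and 343 CPM in medullary α, β, γ and MD. The order of the class means was thus MD, α, β and then the Tmem207/Gpc5 or γ barcodes in both libraries, although the medullary β and γ intervals met. The α means are over unlike deposited clusters. Cortical clusters 1 and 5 (98.9% and 92.6% α) were at 406 and 138 CPM, beside 216 CPM in cluster 4 (77.0% β). Medullary clusters 1 and 4 (96.7% and 64.2% α) were at 221 and 91.7 CPM. Medullary MD over α gave a ratio of 2.02 (1.52 to 2.63), which was called, and cortical MD over α 1.44 (1.32 to 1.57). Scaled by the median of gene ratios the medullary value was 1.59 (1.20 to 2.07) and no longer called, as were 1.96 with 20 Slc12a1 counts and 1.95 after thinning. Stim1, the related sensor, was at 18.5, 27.0, 27.9 and 24.0 CPM in cortical α, β, Tmem207/Gpc5 barcodes and MD, and at 9.81, 6.83, 10.7 and 48.2 CPM in medullary α, β, γ and MD. The medullary MD value rests on 8 counts and its ratio to α was 4.91 (2.06 to 10.1). Proximal tubule barcodes held Stim1 at 70.8 and 23.8 CPM. A count was found in 6.41% of medullary MD barcodes against 9.09% of medullary proximal tubule barcodes. No detection above background is claimed for that MD share.

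Orai1, the pore that Stim proteins open, was at 10.9, 12.6, 12.1 and 28.8 CPM in cortical α, β, Tmem207/Gpc5 barcodes and MD, and at 10.3, 7.97, 8.06 and 24.1 CPM in medullary α, β, γ and MD. Cortical MD over α gave a ratio of 2.64 (1.81 to 3.79), which was called, and medullary MD over α 2.33 (0.622 to 6.16) on 4 MD counts. An Orai1 count was found in 7.04% of cortical MD barcodes, below the 11.4% of the deeper proximal tubule barcodes. No detection above background is claimed there, and the source of the MD counts was not tested. Orai2 ranged from 2.43 CPM in medullary γ to 13.8 CPM in cortical MD and was called lower in medullary γ than α (ratio 0.414, 0.241 to 0.691), a call lost with classes from Cldn10, Cldn16 and Kcnj10 (0.705, 0.0807 to 2.84) and with a minimum of 100 counts. Stimate, an endoplasmic reticulum protein that promotes Stim activity and that the symbol rule took in by its prefix, lay between 25 and 37.8 CPM with no call.

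Slc8a1, the sodium-calcium exchanger, was at 89.0 CPM in cortical α, 492 in β, 69.1 in the Tmem207/Gpc5 barcodes and 246 in MD, and at 30.2, 372, 22.9 and 42.2 CPM in medullary α, β, γ and MD. The β over α ratios were 5.53 (5.09 to 6.02) and 12.3 (10.7 to 14.2), yet a count was found in only 12.5% of cortical and 8.58% of medullary β barcodes, against 8.92% and 4.87% of α barcodes. Proximal tubule barcodes gave 14.8% and 3.03%, so no detection above background is claimed for the cortical shares. Barcodes with at least 5 counts of the DCT genes held Slc8a1 at 7281 CPM in the cortex library and 15274 CPM in the other, and 44 of the 64 such barcodes within the cortical classes, and 7 of the 8 within the medullary ones, fell in β. Without barcodes holding any DCT gene count, cortical β over α gave 1.39 (1.19 to 1.62) and medullary β over α 1.05 (0.744 to 1.45), and neither was called. MD over α in cortex, 2.77 (2.45 to 3.13) over all barcodes, was 1.10 (0.853 to 1.41) without them. The remaining Slc8a1 level was 48.7 and 67.6 CPM in cortical α and β and 25.8 and 27.0 CPM in medullary α and β.

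Medulla and cortex were compared for the α and β classes. In α 6 of 35 members were called, 1 higher and 5 lower in medulla, beside 11.9% of all genes, and in β 5 of 31, 1 higher and 4 lower, beside 10.5%. The median log2 ratio of the members was -0.18 in α and -0.20 in β, beside -0.10 and -0.09 over all genes. Calls over all genes were mostly lower too, 10.2% against 1.74% higher in α and 9.49% against 0.989% in β. Cacnb4 was the member called higher in medulla in both classes, with ratios of 2.42 (2.36 to 2.47) in α and 3.14 (2.98 to 3.32) in β. Atp2b4 was called lower in both, with ratios of 0.209 (0.181 to 0.241) and 0.444 (0.341 to 0.569). Cortical α is a mean over unlike deposited clusters. Clusters 1, 5 and 8 (98.9%, 92.6% and 93.4% α) held Cacnb4 at 1538, 2800 and 280 CPM. The same clusters held Atp2b4 at 146, 23.6 and 235 CPM. The part of this mix in the α ratios was not tested. In α the others lower in medulla were Itpr2 (0.327, 0.292 to 0.365), Slc8a1 (0.339, 0.294 to 0.390), Itpr3 (0.359, 0.208 to 0.602) and Cacna2d1 (0.445, 0.396 to 0.499). The Itpr2 ratio was 0.615 (0.524 to 0.721), and not called, without barcodes holding markers of another cell type. The proximal tubule genes together were at 2592 CPM in cortical α and 438 CPM in medullary α, and cluster 1 of each library, made almost wholly of α barcodes, held Itpr2 at 8.50 and 10.2 CPM. The Itpr3 ratio was 0.518 (0.204 to 1.32), and not called, with classes from Cldn10, Cldn16 and Kcnj10, and its call was also lost with a minimum of 100 counts. In β the others lower in medulla were Stim1 (0.253, 0.128 to 0.457), Orai2 (0.324, 0.100 to 0.811) and Ryr1, with 1 count against 20 (0.149, 0.00359 to 0.930). The Orai2 and Ryr1 calls were lost with stricter limits, with classes from Cldn10, Cldn16 and Kcnj10, after thinning and with a minimum of 100 counts, and Ryr1 also without Scrublet doublets, other cell types or DCT counts. With stricter limits the Atp2b4 ratio in β was 0.527 (0.391 to 0.699) and not called. Barcodes not called as nuclei differed in the same direction, with Atp2b4 at 109 CPM in cortex and 24.3 CPM in the medulla library, Itpr2 at 260 and 145 CPM, and Cacnb4 at the levels given above, and the part of free RNA in the differences was not tested. Without barcodes holding a DCT gene count the Slc8a1 ratio in α was 0.528 (0.447 to 0.624), which was not called, and in β it was 0.399 (0.285 to 0.547) where it was 0.756 (0.693 to 0.824) over all barcodes.

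The other 15 members held 20 to 156 counts in TAL nuclei and peaked at 1.13 to 12 CPM in their highest class, and 13 of them had 0 counts in at least 1 of the 8 combinations of class and library. They were the pore genes Cacna1b, Cacna1e, Cacna1g and Cacna1i, the auxiliary subunit genes Cacna2d2 and Cacna2d4, the Cacng family genes Cacng2, Cacng3 and Cacng8, Ryr1, Orai3 and the pump genes Atp2a1, Atp2a3, Atp2b3 and Atp2c2. Calls were made for Atp2a3 and Ryr1 among them, given above. Genes on the opposite strand with at least 20 counts overlap 15 of the 41 members in GENCODE M39, and none overlaps on the same strand. The cases with sizable counts include Chdh (7058) over Cacna1d (14300), Aven (3036) over Ryr3 (256), Dcp1b (1974) over Cacna1c (270) and Uqcc2 (254) over Itpr3 (229). Whether the counting used strand is not given in the sources used here, so reads of these pairs may not have been told apart.

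The clusters that the authors deposited with each library, made by PIPseeker from all genes and thus also from these, give another grouping of the same nuclei as a description. Over the 11 cortical clusters with at least 50 TAL barcodes Cacnb2 ranged from 16.7 to 707 CPM and Itpr2 from 8.50 to 644 CPM, and over the 12 medullary clusters from 21.4 to 688 and 10.2 to 606 CPM. In cortex, cluster 1 (98.9% α by the count rule) held Cacnb2 at 508 CPM and Itpr2 at 8.50 CPM, and cluster 4 (77% β) held them at 16.7 and 429 CPM. The cluster with most MD barcodes, 76% in cortex and 71.7% in medulla, held Cacnb4 at 9.33 and 26.7 CPM, Ryr2 at 3.89 and 0 CPM, Itpr3 at 68.4 and 48.1 CPM, Atp2b4 at 369 and 385 CPM and Cacna1d at 1294 and 1196 CPM. Part of this profile was also found in cortical cluster 8 (93.4% α, 5.49% MD). It held Cacna1d at 766, Atp2b4 at 235, Cacnb4 at 280, Ryr2 at 53.6 and Itpr3 at 13.8 CPM. Medullary α barcodes were spread over clusters that differed in Atp2b4, which was at 43.6 CPM in cluster 1 (96.7% α) and at 2.72 and 2.60 CPM in clusters 3 and 4 (76.6% and 64.2% α). Cluster 4 also took in γ barcodes (35.8%), with Kcnj10 at 0.865 CPM and Itpr2 at 11.2 CPM, whereas cluster 5 (95.9% γ) held Kcnj10 at 157 CPM, Itpr2 at 251 CPM and Cacnb2 at 114 CPM. The medullary γ class of the count rule therefore contains barcodes with and without Kcnj10, and its mean Cacnb2 and Itpr2 levels are averages over such clusters.

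Around these genes, a list of 119 further genes of calcium transport, calcium buffering, the phospholipase C pathway and calcium-dependent kinases and phosphatases was examined, and all 119 matched. For β against α 5 of 97 with enough counts were called higher and 0 lower in cortex, and 4 of 91 higher and 2 lower in medulla (4.40% and 2.20%, beside 2.44% of all genes in each direction). Calb1 (68.1 against 12.8 CPM in cortex) and Trpv5 (6.12 against 0.628 CPM), a calcium buffer and a calcium channel that define the DCT, were among them. Gem, a small GTPase that binds the cytoplasmic channel subunits, was higher in β in both libraries, at 21.2 against 3.26 CPM in cortex and 9.68 against 1.07 CPM in medulla. Itpkb, a kinase that removes inositol trisphosphate by phosphorylation, was higher in medullary β (295 against 123 CPM, ratio 2.40, 2.16 to 2.66), and Rcan2, a regulator of calcineurin, was lower (30.7 against 122 CPM, ratio 0.252, 0.188 to 0.332).

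For γ against α in medulla 1 of 97 listed genes was called higher and 3 lower, among them the calcium sensor gene Hpcal1 at 61.6 against 148 CPM. For γ against β 4 of 91 were called higher and 7 lower (4.40% and 7.69%, beside 2.77% and 4.22% of all genes). Rcan2 was higher in γ (122 against 30.7 CPM), and Itpkb (103 against 295 CPM), Inpp5a (69.9 against 153 CPM), a phosphatase of inositol trisphosphate, and Hpcal1 (61.6 against 184 CPM) were lower. The share of listed genes called was 5.15% for β against α in cortex, all higher, and 1.03% higher and 3.09% lower for γ against α, where 2.40%, 0.982% and 2.42% of all genes were called in those directions.

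For MD against α 13 of 94 listed genes were called higher and 8 lower in cortex (13.8% and 8.51%, beside 5.97% and 4.17% of all genes), and 13 of 89 higher and 8 lower in medulla (14.6% and 8.99%, beside 7.28% and 4.75%). Camk2d, a calmodulin-dependent kinase, was at 1818 against 632 CPM in cortex (ratio 2.88, 2.75 to 3.01) and 2012 against 583 CPM in medulla (3.45, 3.08 to 3.86). In cortex Itprid2 (384 against 123 CPM), Inpp5a (292 against 132 CPM) and Mcu, the pore of the mitochondrial calcium uniporter (216 against 105 CPM), were higher too. Itpkb was lower in both libraries, at 52.8 against 140 CPM in cortex and, on 3 counts, at 18.1 against 123 CPM in medulla (ratio 0.147, 0.0302 to 0.430). Ahcyl1, whose protein binds and inhibits inositol trisphosphate receptors, was at 54.2 against 150 CPM in medulla.

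Between libraries 3 of 98 listed genes were called higher and 12 lower in medullary α, and 0 of 91 higher and 10 lower in medullary β. The shares called lower, 12.2% and 11.0%, were close to the 10.2% and 9.49% of all genes. Trpc1, a cation channel subunit, was lower in medulla in both classes, at 24.4 against 84.4 CPM in α and 26.2 against 86.3 CPM in β. Gna14, a G protein subunit that activates phospholipase C, was lower as well, at 6.08 against 26.2 CPM in α and 9.11 against 38.2 CPM in β. Rcan2 was higher in medullary α, at 122 against 43.6 CPM.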

How the data were processed

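Sorted TAL nuclei of mouse kidney cortex and medulla, 1 library each, were captured with the PIPseq kit (version 5). The authors demultiplexed with bcl2fastq, aligned to GRCm39 and counted transcripts per gene and barcode with PIPseeker 3.3.0, and these deposited counts are raw, from before their own removal of doublets and free RNA. The annotation release, the use of strand in counting and the number of animals are not given in the sources used here.

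Barcodes with at least 10 Slc12a1 counts were put in classes by counts of Nos1, Pappa2, Tmem52b, Tmem207 and Gpc5. Counts were summed per class and library and scaled to counts per 1000000 (CPM) with exact Poisson intervals, and ratios were given conditional binomial intervals and shares Clopper-Pearson intervals, all at 95%. With 1 library per region there was no test. A gene was called at a ratio of at least 2 in either direction, an interval that excludes 1 and at least 20 counts, over all genes. Members with at least 200 counts in TAL nuclei are described in full, others by range unless called, and of the pathway list some of the called genes with the most counts are named. The floor for a gene at 0 was 3 counts. Detection was also computed after thinning barcodes to 1000 counts. The calculation was tested on simulated Poisson counts of whole classes, with no spread between barcodes. That test cannot show how the intervals do where counts gather in few barcodes. The members and gene lists were chosen with earlier results of these data known.

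Alternatives changed the barcode filter, doublets (Scrublet in scanpy 1.11.5), other cell types, class rules, scaling, denominator, depth, count minimum and fold. Python 3.11.15, numpy 2.4.6, scipy 1.17.1, pandas 2.3.3 and matplotlib 3.10.9 were used. Promoter windows came from RefSeq (GRCm38.p6) and gene positions from GENCODE M39. The deposited embeddings were not used.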

Additional observations from a re-analysis of the deposited data

How the results depend on the processing

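Of 594 values of the 54 called ratios under the alternatives, 444 lay within the counting interval of the reported value, 144 lay outside it on the same side of 1, and 6 lay on the other side of 1. With classes from Cldn10, Cldn16 and Kcnj10, those on the other side were Atp2b2 for β against α in cortex (0.914), Atp2b2 for γ against α (0.604) and Cacnb2 for γ against β (0.571). With the deposited clusters they were Slc8a1 for γ against β (2.52) and for MD against α in cortex (0.635), and without barcodes holding markers of another cell type Slc8a1 for β against α in cortex (0.882). The number of members called with classes from Cldn10, Cldn16 and Kcnj10 was 2 for β against α in cortex, 2 in medulla, 4 for γ against α and 2 for γ against β. With a fold of 3 it was 3 for β against α in cortex, 3 for γ against α, 3 for γ against β, 5 for MD against α in cortex and 2 for medulla against cortex in α. With a fold of 1.5 it was 7 for β against α in medulla and 10 for medulla against cortex in α. With at least 100 counts it was 5 for γ against α. For medulla against cortex in β it was 2 with stricter class limits, 10 with the deposited clusters, 3 after thinning and 3 with at least 100 counts. The cause was not tested, apart from fewer members or a higher limit by construction. The share of all genes called at each setting is not set beside these numbers, so a change may not be particular to the members. Scaling by the median of gene ratios moved MD against α in medulla by 0.35 on the log2 scale, from 173 genes, and the other comparisons by at most 0.07. Scrublet marked 6.21% of cortical and 0.0246% of medullary barcodes, and the latter did not work as a caller, so the 379 medullary barcodes with the highest scores were left out instead. The alternative without DCT gene counts was chosen after seeing the data. No paired analysis was possible because each region is 1 library. Depth limits the 78 medullary MD barcodes most, where 1 count is 6.02 CPM, and the classes are ranges of a count, so barcodes near a limit are mixed.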
